A study of Mus musculus with 12 samples.

Results

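The voltage-gated potassium channel genes of the mouse hippocampus were described one gene at a time in *Dek* constitutive knockout (cKO) and wild-type (WT) mice. Members were the protein-coding genes of the GENCODE M21 annotation whose symbol is Kcn, one of the letters a, b, c, d, f, g, h, q, s or v, and a number, with a value above 0 in any library. Of 40 such symbols, 39 were in the deposited table of 26409 genes and all 39 were above 0 in at least 1 library. They fall into 10 subfamilies by letter, of which *Kcna* and *Kcnh*, with 8 genes each, are the largest. Counts below cover all 39 genes, and values are given for 35 of them. The rule used symbols and detection only and no measured difference between genotypes.

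Voltage-gated potassium channels are assemblies of pore-forming subunits, each with a charged segment that moves with membrane voltage and opens the pore, so that potassium leaves the cell and the membrane repolarises after an action potential. Subfamilies differ in speed and place: *Kcna* channels sit largely on axons, *Kcnc* channels let neurons fire fast trains, *Kcnd* channels carry the dendritic A-type current, *Kcnq* channels carry the slow M-current that muscarinic receptors close, and *Kcnh* channels belong to the ether-a-go-go family. The *Kcnf*, *Kcng*, *Kcns* and *Kcnv* subunits form no channel of their own and change the properties of the channels they join, and are therefore called silent subunits.

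Bulk RNA of dissected hippocampus was sequenced from 12 adult mice that had been through behavioral testing, 3 in each of 4 groups: female WT, male WT, female *Dek* cKO and male *Dek* cKO. In the cKO mice, exons of *Dek* that were flanked by loxP sites have been removed in the germline by CMV-Cre (C57Bl/6 background), and the Cre was then bred out. The gene, which encodes a chromatin-bound protein, is thus lost in every cell type and throughout development, and not only in adult hippocampal neurons. The labels give no litter or age per mouse, and p-values below measure the spread between these mice only. In bulk tissue, fewer cells of a type and less RNA per cell cannot be told apart. Library names of the female WT mice begin with C57 and those of the other 3 groups with CMV. Genotype and name prefix thus cannot be told apart in the female comparison, nor sex and prefix within WT.

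*Dek* itself was 48.3 ± 2.58 TPM (SD, n = 6) in WT, where TPM is a transcript level corrected for transcript length and for the total of each library, and 7.23 ± 1.32 TPM (SD, n = 6) in *Dek* cKO, and no cKO library (5.55 to 9.25 TPM) came near a WT library (44.2 to 51.9 TPM). Its log2 fold change was -2.74 (SE 0.10, limma adj p value 1.17e-08). The library labelled female cKO replicate 3 expressed the Y-linked gene *Eif2s3y* at 72.7 TPM, and the library labelled male cKO replicate 1 held it at 0.111 TPM, so both go against their sex label. The comparison of 6 cKO with 6 WT libraries does not use sex. For the named genes, values without these 2 libraries are given beside those of all 12. Hippocampal neuron markers such as those of dentate granule cells and of CA1 were present in every group, and no marker on any list was at 0 throughout. The 7 markers of choroid plexus, a neighboring tissue, summed to between 47.9 and 4454 TPM per library, and the part of this difference in the results was not tested. TPM gives no read depth, so no counting error could be given.

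The summed level of the 39 genes was 875 ± 34.9 TPM (SD, n = 6) in WT and 874 ± 50.2 TPM (SD, n = 6) in *Dek* cKO. In WT, 34 of the 39 genes had a mean of at least 1 TPM, 21 of at least 10 TPM and 11 of at least 30 TPM. The *Kcna* genes contributed 14.4% of this sum, the *Kcnh* genes 10.8% and the *Kcnd* genes 9.49%. Of the 39 genes, 36 were above 0 in every library, the exceptions being *Kcna7*, *Kcna10* and *Kcnv2*.

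**Figure D1:**
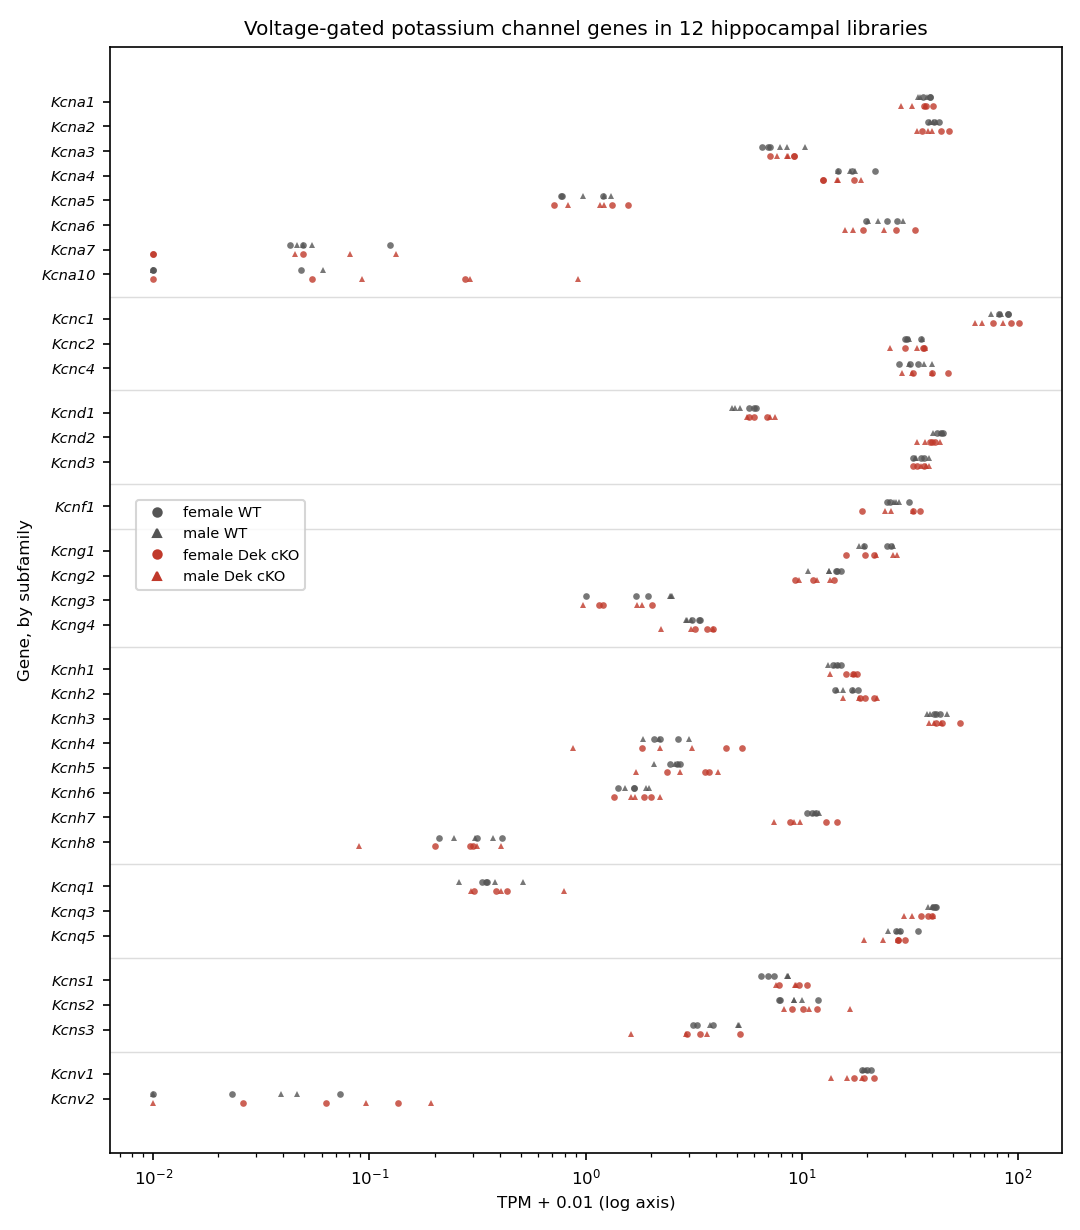
TPM + 0.01 on a log axis for 35 of the genes in each of 12 libraries, with genes grouped by subfamily, WT in grey, *Dek* cKO in red, circles for female and triangles for male labels. Of these *Kcnc1* lies highest, at 63.7 to 101 TPM over both genotypes, and *Kcna7*, *Kcna10* and *Kcnv2* lie lowest, with some libraries at 0.

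In the order of WT means of these 35 genes, *Kcnc1* (83.7 TPM, range 74.9 to 90.1) stood above *Kcnd2* (43.6 TPM, range 40.7 to 45.2), and these ranges did not overlap. *Kcnd2*, *Kcnh3* (41.8 TPM), *Kcna2* (40.7 TPM), *Kcnq3* (40.4 TPM) and *Kcna1* (37.1 TPM) followed each other with overlapping ranges, so their order is not separated by the spread between mice. From there down to *Kcns1* (7.78 TPM) every gene overlapped its neighbor in the order. Gaps came again between *Kcns1* and *Kcnd1* (5.44 TPM), between *Kcng4* (3.13 TPM) and *Kcnh5* (2.52 TPM), between *Kcnh6* (1.68 TPM) and *Kcna5* (1.03 TPM), between *Kcna5* and *Kcnq1* (0.353 TPM), and between *Kcnh8* (0.30 TPM) and *Kcna7* (0.0509 TPM).

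To ask whether loss of *Dek* altered any of these channels, 6 cKO libraries were compared with 6 WT libraries. No gene of the 39 passed the test, and the summed level of each of the 10 subfamilies overlapped between genotypes. Of the 39 genes, 37 had a mean of at least 0.1 TPM and were tested, and *Kcna7* and *Kcnv2* were not. With limma on log2(TPM + 0.1), 0 of 37 passed an adj p value of 0.05 with a fold change over 1.2, against 0.148% of all 18197 genes tested (27 genes), and the lowest adj p value of any member was 0.568. At an unadjusted p under 0.05 stood 6 members (16.2%), against 6.64% of all genes. Of these, 4 were higher in *Dek* cKO, where 4.84% of all genes were, and 2 were lower, where 1.8% of all genes were. One of the 4, *Kcna10*, entered the test only through its cKO values, and without it 5 of 36 members (13.9%) stood there, 3 of them higher. These 6 are named below as the members closest to a difference, and not as changed genes.

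The median log2 fold change of the 37 members was 0.02, equal to that of all genes, with 20 members above 0 and 17 below. The 95% interval of the log2 fold change lay within -0.25 and 0.25 for 7 members, within -0.5 and 0.5 for 28 and within -1 and 1 for 36. Log2 differences larger than 0.5 thus lay outside the interval for most members. In 0 members were the 6 cKO values all above or all below the 6 WT values, against 0.676% of all genes.

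**Figure D2:**
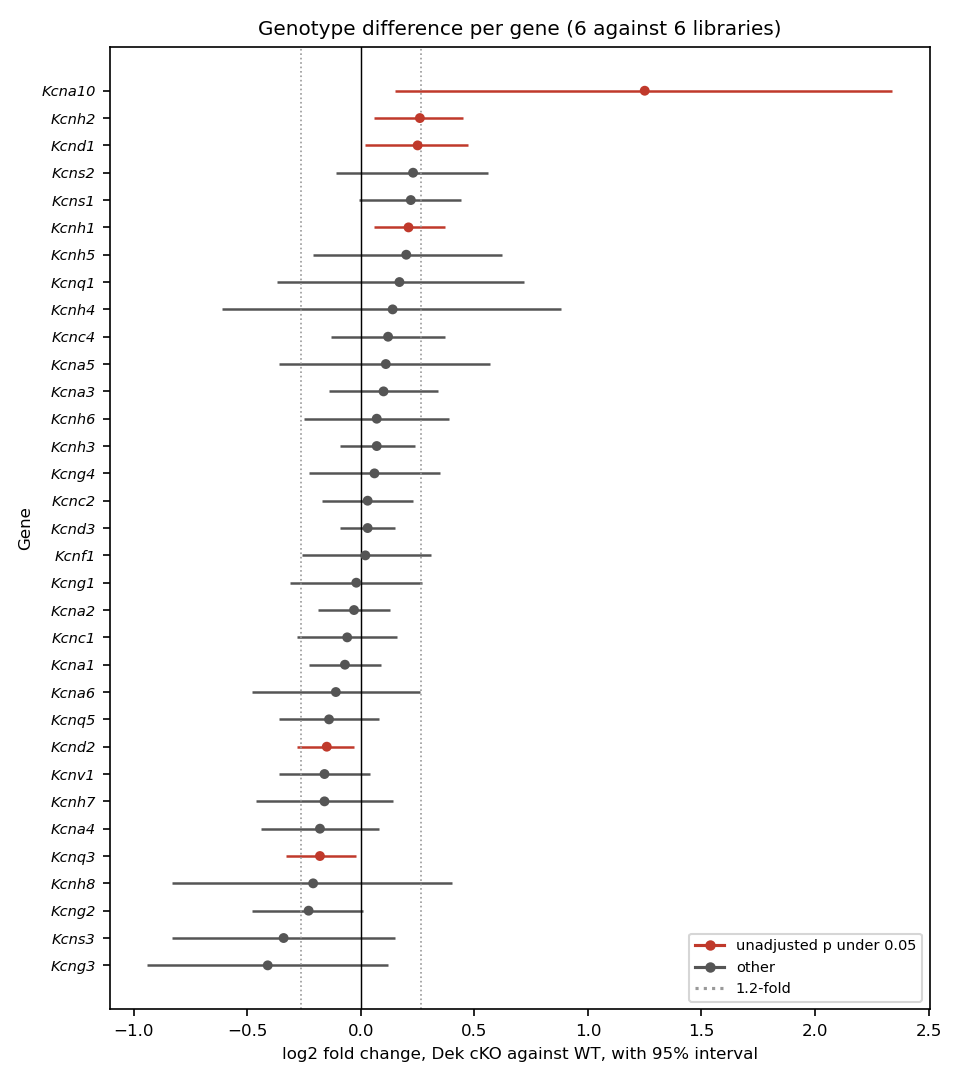
Log2 fold change of *Dek* cKO against WT (6 against 6 libraries) for 33 of the tested genes, with the 95% interval as a line, in order of size, and dotted lines at a 1.2-fold change. The 6 genes at an unadjusted p under 0.05 are red, the point furthest right is *Kcna10* at 1.25, and 24 of these 33 intervals lie within -0.5 and 0.5.

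Among the *Kcna* genes, which encode the Shaker-type channels, *Kcna2* was highest. It encodes a main subunit of axonal channels beside the nodes of Ranvier. In WT it ranged from 38.6 to 43.2 TPM with a median of 40.7, and in *Dek* cKO from 34.1 to 48.2 TPM with a median of 39.1. Of the 6 cKO values, 2 lay above and 3 below every WT value, so the cKO mice were more spread than the WT mice with no common direction. *Kcna1*, its partner on axons, had 37.1 ± 2.05 TPM in WT and 35.5 ± 4.20 TPM in cKO (SD, n = 6). *Kcna6* (24.1 TPM in WT) and *Kcna4* (17.1 TPM), the A-type member of the group, had log2 fold changes of -0.11 and -0.18. *Kcna3* (7.90 TPM), also a channel of lymphocytes and microglia, and *Kcna5* (1.03 TPM), a channel of the heart atrium, had 0.10 and 0.11. *Kcna7*, a channel of heart and skeletal muscle, was at most at 0.122 TPM in any library.

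*Kcna10*, which encodes a channel regulated by cyclic nucleotides, was listed at 0 in 4 of 6 WT libraries and at 0.038 and 0.051 TPM in the other two. In *Dek* cKO it was at 0, 0.044, 0.082, 0.268, 0.281 and 0.91 TPM, so 4 of 6 cKO values lay above every WT value, and the other two overlapped them. The log2 fold change was 1.25 (SE 0.51, unadjusted p = 0.0289, adj p value 0.674 with limma), and it depends on the added 0.1 TPM, being 0.28 (unadjusted p = 0.058) with 1 TPM added. The gene entered the test only through its cKO values, since its WT mean of 0.0149 TPM is below the limit. Without male cKO replicate 2, which held the value of 0.91 TPM, it no longer reached the mean needed for a test. Without both libraries of conflicting sex, the log2 fold change was 1.48 (unadjusted p = 0.0195).

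*Kcna10* lies on chromosome 3 beside *Kcna3*, *Kcna2* and *Kcnc4*, in a stretch of 423 kb (GRCm38, chr3:107036169-107459552). *Kcna5*, *Kcna1* and *Kcna6* lie together on chromosome 6 in 208 kb (chr6:126532551-126740674). Neighbors in these clusters differed widely in level. The start regions of the chromosome 3 *Kcna* genes are shown because these neighbors, one of them nearly undetected, also differ widely in CpG, the dinucleotide CG that reads the same on both strands. Windows from RefSeq (GRCm38.p6) run from 250 bases before to 50 bases after the start, all on the plus strand, and capitals mark each CG. They are chr3:107035912-107036211 for *Kcna3*, chr3:107101317-107101616 for *Kcna2* and chr3:107182893-107183192 for *Kcna10*.
Kcna3: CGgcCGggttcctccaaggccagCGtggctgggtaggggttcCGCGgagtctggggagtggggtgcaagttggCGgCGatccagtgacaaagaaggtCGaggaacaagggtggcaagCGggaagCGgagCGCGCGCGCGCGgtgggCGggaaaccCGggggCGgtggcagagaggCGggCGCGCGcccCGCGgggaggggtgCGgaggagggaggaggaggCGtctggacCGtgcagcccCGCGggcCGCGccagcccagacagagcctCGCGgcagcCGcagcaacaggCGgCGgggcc
Kcna2: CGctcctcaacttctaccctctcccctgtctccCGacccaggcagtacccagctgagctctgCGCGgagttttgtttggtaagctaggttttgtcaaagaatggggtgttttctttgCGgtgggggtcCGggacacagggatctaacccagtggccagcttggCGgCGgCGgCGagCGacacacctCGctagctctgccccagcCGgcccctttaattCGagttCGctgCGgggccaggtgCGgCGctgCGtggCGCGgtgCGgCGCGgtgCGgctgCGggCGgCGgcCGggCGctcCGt
Kcna10: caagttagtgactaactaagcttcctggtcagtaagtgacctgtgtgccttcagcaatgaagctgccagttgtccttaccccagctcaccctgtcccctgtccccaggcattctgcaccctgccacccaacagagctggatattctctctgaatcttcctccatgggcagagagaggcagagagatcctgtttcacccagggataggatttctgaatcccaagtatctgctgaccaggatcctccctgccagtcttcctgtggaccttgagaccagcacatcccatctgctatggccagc
The *Kcna3* window held 37 CG, and 5.58% of 32851 windows of the genome had at least that number. The *Kcna2* window held 31 (10.6% of windows had at least that number). The *Kcna10* window held 0, while 94.6% of all windows had at least 1. *Kcna2* was at 40.7 TPM in WT, *Kcna3* at 7.90 TPM and *Kcna10* at 0.0149 TPM, so the window richest in CG was not that of the highest gene. Windows were matched for 25 of the 39 genes. Taking the richest window of each, the median was 21 CG against 7 over all windows, and 19 of 25 lay above 7, against 48.6% of all windows. The 25 genes had 30 windows, and no richest window was picked for the other genes, so this comparison favors the members. These are counts of letters in the reference and no measure of methylation or of any factor.

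The *Kcnc* genes encode fast channels known from fast-spiking interneurons. *Kcnc1* ranged from 74.9 to 90.1 TPM in WT with a median of 82.8, and from 63.7 to 101 TPM in *Dek* cKO with a median of 80.8. Both the highest and the lowest of the 12 libraries were cKO mice, female cKO replicate 1 and male cKO replicate 3. For *Kcnc2* and *Kcnc4* the log2 fold changes were 0.03 and 0.12, and both 95% intervals held 0.

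Of the *Kcnd* genes, which carry the A-type current, *Kcnd2* was highest and is the main one in pyramidal cell dendrites. In WT it ranged from 40.7 to 45.2 TPM with a median of 44.1, and in *Dek* cKO from 34.1 to 43.7 TPM with a median of 39.6. All 6 cKO values lay below the WT median and 4 below every WT value, with female cKO replicate 3 and male cKO replicate 1 inside the WT range. The log2 fold change was -0.15 (SE 0.06, 95% interval -0.28 to -0.03, unadjusted p = 0.0194, adj p value 0.628 with limma). These 2 libraries are those of conflicting sex, and without them the log2 fold change was -0.21 (unadjusted p = 0.00279, adj p value 0.336).

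*Kcnd1*, the least abundant of the 3, lies on the X chromosome. It ranged from 4.74 to 6.13 TPM in WT with a median of 5.43, and from 5.55 to 7.52 TPM in *Dek* cKO with a median of 6.48. All 6 cKO values lay above the WT median and 3 above every WT value. *Kcnd1* had a log2 fold change of 0.25 (SE 0.10, unadjusted p = 0.0332, adj p value 0.698 with limma). Without both libraries of conflicting sex it was 0.18 (unadjusted p = 0.15), and 2 of those 3 high libraries are the ones left out. *Kcnd3* had 35.3 ± 2.30 TPM in WT and 35.9 ± 2.23 TPM in cKO (SD, n = 6), with a log2 fold change of 0.03 and a 95% interval from -0.09 to 0.15.

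The *Kcnh* genes held the 2 members with the lowest p-values. *Kcnh1*, which encodes the ether-a-go-go channel Kv10.1, ranged from 13.1 to 15.2 TPM in WT with a median of 14.4, and from 13.5 to 18.1 TPM in *Dek* cKO with a median of 17.3. In 5 of 6 cKO libraries the value lay above every WT value, and male cKO replicate 2 was the exception. For *Kcnh1* the log2 fold change was 0.21 (SE 0.07, 95% interval 0.06 to 0.37, unadjusted p = 0.012, adj p value 0.568 with limma).

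*Kcnh2* encodes Kv11.1, the channel known as hERG in humans, which repolarises heart muscle and is also present in neurons. It ranged from 14.3 to 18.2 TPM in WT with a median of 16.2, and from 15.6 to 22.4 TPM in *Dek* cKO with a median of 19.1. Again 5 of 6 cKO values lay above every WT value, and male cKO replicate 2 lay inside the WT range. *Kcnh2* had a log2 fold change of 0.26 (SE 0.09, 95% interval 0.06 to 0.45, unadjusted p = 0.0143, adj p value 0.596 with limma). Without both libraries of conflicting sex, *Kcnh1* was at 0.20 (unadjusted p = 0.0388) and *Kcnh2* at 0.21 (unadjusted p = 0.0562).

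*Kcnh3*, which encodes Kv12.2 of forebrain pyramidal cells, was the highest of the group. It ranged from 38.2 to 46.8 TPM in WT with a median of 41.3, and from 38.7 to 54.1 TPM in *Dek* cKO with a median of 43.0, and only female cKO replicate 1 lay outside the WT range. *Kcnh4* varied widely, from 1.83 to 2.99 TPM in WT and from 0.865 to 5.29 TPM in cKO, with male cKO replicate 3 lowest and female cKO replicate 1 highest. For *Kcnh5*, *Kcnh6*, *Kcnh7* and *Kcnh8* the values were 0.20, 0.07, -0.16 and -0.21 (log2 fold change), and all 4 of their 95% intervals held 0. The summed level of the 8 genes was 90.4 ± 3.27 TPM in WT and 98.6 ± 12.4 TPM in *Dek* cKO (SD, n = 6), with overlapping ranges.

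**Figure D3:**
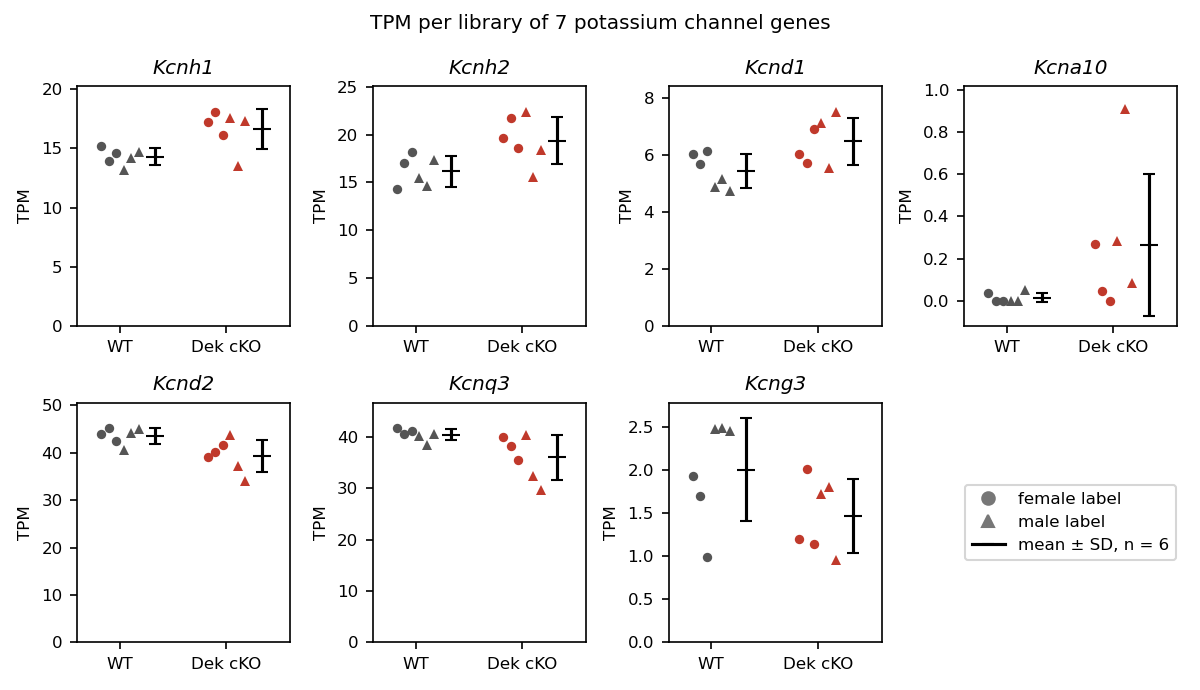
TPM in each library for *Kcnh1*, *Kcnh2*, *Kcnd1*, *Kcna10*, *Kcnd2*, *Kcnq3* and *Kcng3*, WT in grey and *Dek* cKO in red, circles for female and triangles for male labels, with the mean and SD (n = 6) as a black bar. The genotypes overlap in all 7 panels, with 5 of 6 cKO values above every WT value for *Kcnh1* and *Kcnh2* and 4 of 6 below every WT value for *Kcnd2* and *Kcnq3*.

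The *Kcnq* genes hold the subunits of the M-current. *Kcnq3* ranged from 38.5 to 41.7 TPM in WT with a median of 40.5, and from 29.6 to 40.3 TPM in *Dek* cKO with a median of 37.0. All 6 cKO values of *Kcnq3* lay below the WT median and 4 below every WT value, the 2 lowest being male cKO replicates 3 and 2. The log2 fold change was -0.18 (SE 0.07, 95% interval -0.33 to -0.02, unadjusted p = 0.0299, adj p value 0.674 with limma), and -0.22 (unadjusted p = 0.0192) without both libraries of conflicting sex. Without male cKO replicate 3 it was -0.12 and no longer under 0.05.

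*Kcnq5*, also a forebrain M-channel subunit, had 28.6 ± 3.13 TPM in WT and 26.1 ± 3.81 TPM in cKO (SD, n = 6), with a log2 fold change of -0.14. *Kcnq1*, the cardiac member, was at 0.353 TPM in WT. Its locus also holds the antisense transcript *Kcnq1ot1*, and although the library kit was a stranded one, whether strand was used in quantification is not given in the sources used here, so its level is uncertain.

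Of the silent subunits, *Kcnf1*, *Kcng1* and *Kcnv1* were the most abundant. *Kcnf1* ranged from 24.8 to 31.5 TPM in WT with a median of 27.1, and from 19.0 to 35.1 TPM in *Dek* cKO with a median of 29.3, 3 cKO values lying above and 2 below every WT value. *Kcng1* ranged from 18.5 to 26.4 TPM in WT with a median of 22.2, and from 16.1 to 27.6 TPM in cKO with a median of 21.8. *Kcnv1* ranged from 19.0 to 21 TPM in WT with a median of 19.7, and from 13.7 to 21.6 TPM in cKO with a median of 18.2. For none of these 3 did the unadjusted limma p reach 0.05, and *Kcnv1* was closest with -0.16 (unadjusted p = 0.10).

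*Kcns2* ranged from 7.86 to 11.9 TPM in WT with a median of 9.22, and from 8.30 to 16.8 TPM in *Dek* cKO with a median of 10.5, with only male cKO replicate 3 above the WT range. *Kcns1* and *Kcns3* had log2 fold changes of 0.22 and -0.34, and *Kcng2* and *Kcng4* of -0.23 and 0.06. *Kcng3* ranged from 0.995 to 2.49 TPM in WT with a median of 2.20, and from 0.959 to 2.02 TPM in cKO with a median of 1.46. All 6 of its cKO values lay below the WT median, but female WT replicate 3 was nearly as low as the lowest of them, and the log2 fold change was -0.41 (SE 0.25, 95% interval -0.94 to 0.12, unadjusted p = 0.121, adj p value 0.852 with limma). The spread within WT followed the sex labels and equally the name prefixes, with 1.54 ± 0.488 TPM in females and 2.48 ± 0.0152 TPM in males (SD, n = 3). *Kcnv2*, known from photoreceptors, was at most at 0.182 TPM in any library.

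Since female WT mice alone had C57 library names, the 6 cKO libraries were also set against the 3 male WT libraries only. *Kcnh1* (0.24, unadjusted p = 0.0365), *Kcnh2* (0.29, unadjusted p = 0.0304) and *Kcnd1* (0.38, unadjusted p = 0.0134) stayed under 0.05 with limma. *Kcnd2* (-0.14, unadjusted p = 0.104), *Kcnq3* (-0.15, unadjusted p = 0.165) and *Kcna10* (1.22, unadjusted p = 0.106) did not, while *Kcng3* did (-0.76, unadjusted p = 0.0116). All 7 differences kept their sign. This sets cKO libraries of both sex labels against WT libraries of one, so genotype and sex are mixed in it. Within WT, *Kcng3* was lower and *Kcnd1* higher in females (5.94 ± 0.229 TPM) than in males (4.93 ± 0.22 TPM, both SD, n = 3). The sex labels and the name prefixes split the WT libraries in the same way, so these cannot be told apart there.

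Within the female labels, 0 of 37 members passed the test (0.0165% of all genes did), and 2 (5.41%) stood at an unadjusted p under 0.05, against 5.79% of all genes. They were *Kcns1* with a log2 fold change of 0.42 (SE 0.13, unadjusted p = 0.00815) and *Kcng2* with -0.37 (SE 0.16, unadjusted p = 0.0441). Without both libraries of conflicting sex these were 0.54 (unadjusted p = 0.000537, adj p value 0.131 with limma) and -0.52 (unadjusted p = 0.00483). That fit left only replicates 1 and 2 in the female cKO group. Without female cKO replicate 1, *Kcng2* was at -0.22 (unadjusted p = 0.196), and it was no longer under 0.05 in 8 of the 12 fits that left out 1 library. The share of members was close to that of all genes. For *Kcns1*, all female WT values (6.45 to 7.42 TPM) lay below those of the other libraries (7.58 to 10.6 TPM), male WT included. This split follows the name prefix, so genotype and prefix cannot be told apart in it.

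Within the male labels, 0 of 37 members passed (0.0165% of all genes did), and 8 (21.6%) stood at an unadjusted p under 0.05, against 5.45% of all genes, or 7 of 36 (19.4%) without *Kcna10*. Of these 8, *Kcna10* (1.84) and *Kcnd1* (0.43) were higher in *Dek* cKO. *Kcng3* (-0.74), *Kcnh7* (-0.41), *Kcnq3* (-0.23), *Kcns3* (-0.80) and *Kcnv1* (-0.28) were lower. The unadjusted limma p-values of these 7 were 0.021, 0.00811, 0.0387, 0.0315, 0.0343, 0.0179 and 0.0357 in this order. Without both libraries of conflicting sex *Kcnq3* was at -0.36 (unadjusted p = 0.000264, adj p value 0.274), *Kcnh7* at -0.49 (unadjusted p = 0.0021), *Kcng3* at -0.86 (unadjusted p = 0.0413), *Kcnd1* at 0.38 (unadjusted p = 0.0281) and *Kcna10* at 1.90 (unadjusted p = 0.0401), whereas *Kcns3* (-0.48, unadjusted p = 0.0942) and *Kcnv1* (-0.28, unadjusted p = 0.0562) were no longer under 0.05. That fit left only replicates 2 and 3 in the male cKO group, at 32.3 and 29.6 TPM for *Kcnq3*. The lowest value of *Kcns3*, 1.62 TPM, was that of male cKO replicate 1. Without male cKO replicate 3, *Kcng3* was at -0.47 (unadjusted p = 0.162), *Kcnh7* at -0.29 (unadjusted p = 0.123), *Kcnq3* at -0.14 (unadjusted p = 0.15) and *Kcnv1* at -0.16 (unadjusted p = 0.158).

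Whether the genotype difference itself differed between sexes was tested by the interaction. Female WT libraries alone had C57 names, so a part of sex and a part of name prefix cannot be told apart in it. No member passed (0.0% of all genes did), and 2 (5.41%) stood at an unadjusted p under 0.05, against 4.23% of all genes. They were *Kcns3*, with a female minus male difference of 0.93 (unadjusted p = 0.0451), and *Kcng1*, with -0.54 (unadjusted p = 0.0384). Without both conflicting libraries these were 0.67 (unadjusted p = 0.0973) and -0.73 (unadjusted p = 0.0155), and without male cKO replicate 1 alone *Kcns3* was at 0.60 (unadjusted p = 0.104). Each of the 2 was no longer under 0.05 in 7 of the 12 fits that left out 1 library. The sign of the log2 fold change was opposite in the sexes for 15 members (40.5%), against 48.8% of all genes. Of these 15, 12 were higher in females and lower in males, and 3 the other way. The female minus male difference was above 0 for 28 members and below 0 for 9, whereas 48.7% of all genes were above 0. No test was made of these counts. The median log2 fold change of members was 0.09 in females and -0.09 in males, against 0.01 and 0.02 over all genes.

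**Figure D4:**
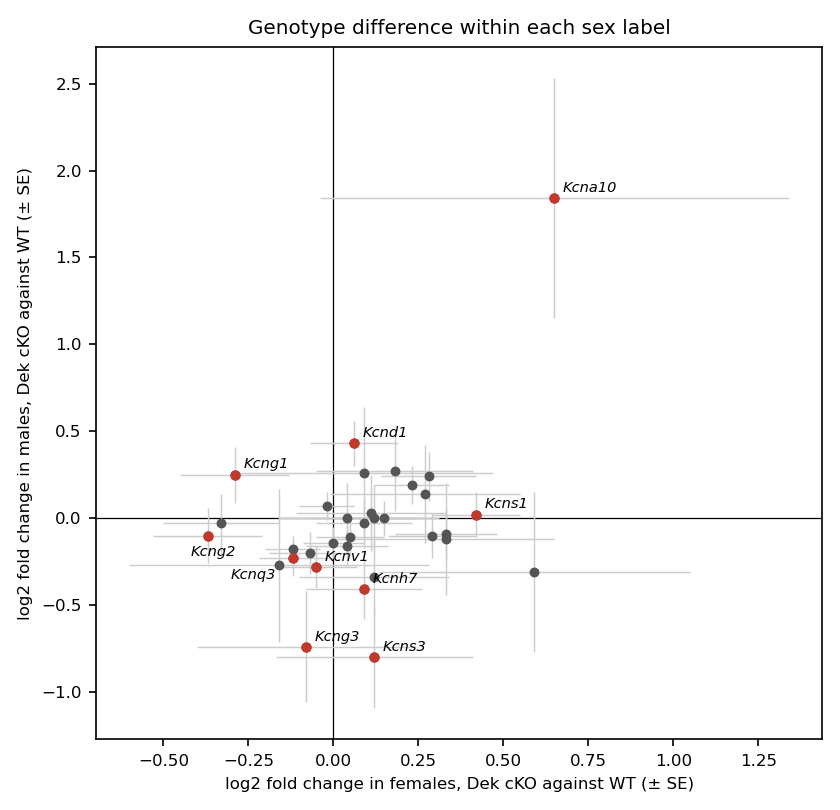
Log2 fold change of *Dek* cKO against WT in females (horizontal axis) and in males (vertical axis) for 33 of the tested genes, with lines of ± 1 SE, 3 against 3 libraries in each sex label. Red, named points are genes at an unadjusted p under 0.05 within a sex or in the interaction, with *Kcna10* at 0.65 and 1.84 and *Kcns3* at 0.12 and -0.80.

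For most members the cKO mice differed more from each other than the WT mice did. The SD of the log2 values was larger in *Dek* cKO than in WT for 33 of 37 members (89.2%), against 67.1% of all genes. *Kcna10* is one of the 33, and as it entered the test only through its cKO values, it carries no weight in this count. The median SD of members was 0.154 in WT and 0.242 in cKO, and that of all genes 0.164 and 0.222. By group, the median SD of members was 0.10 in female WT, 0.12 in male WT, 0.214 in female cKO and 0.233 in male cKO (n = 3 each). That of all genes was 0.136, 0.139, 0.172 and 0.205 in the same order, so it was also larger in cKO. The libraries furthest out were cKO libraries. Female cKO replicate 1 was the highest of 12 for 10 members, *Kcna2*, *Kcnc1* and *Kcnh3* among them, and the lowest for 4, while it was the highest for 11.6% and the lowest for 9.36% of all genes. Male cKO replicate 3 was the lowest for 13 members and the highest for 6, *Kcnq1* and *Kcns2* among them. Male cKO replicate 3 was also the lowest library for 15.3% and the highest for 19.5% of all genes. Without it, 29 of 37 members had the larger SD in cKO (58.9% of all genes), also 29 without female cKO replicate 1 (65.1% of all genes), and 32 without both libraries of conflicting sex (64.0% of all genes). No test was made of this difference in spread.

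**Figure D5:**
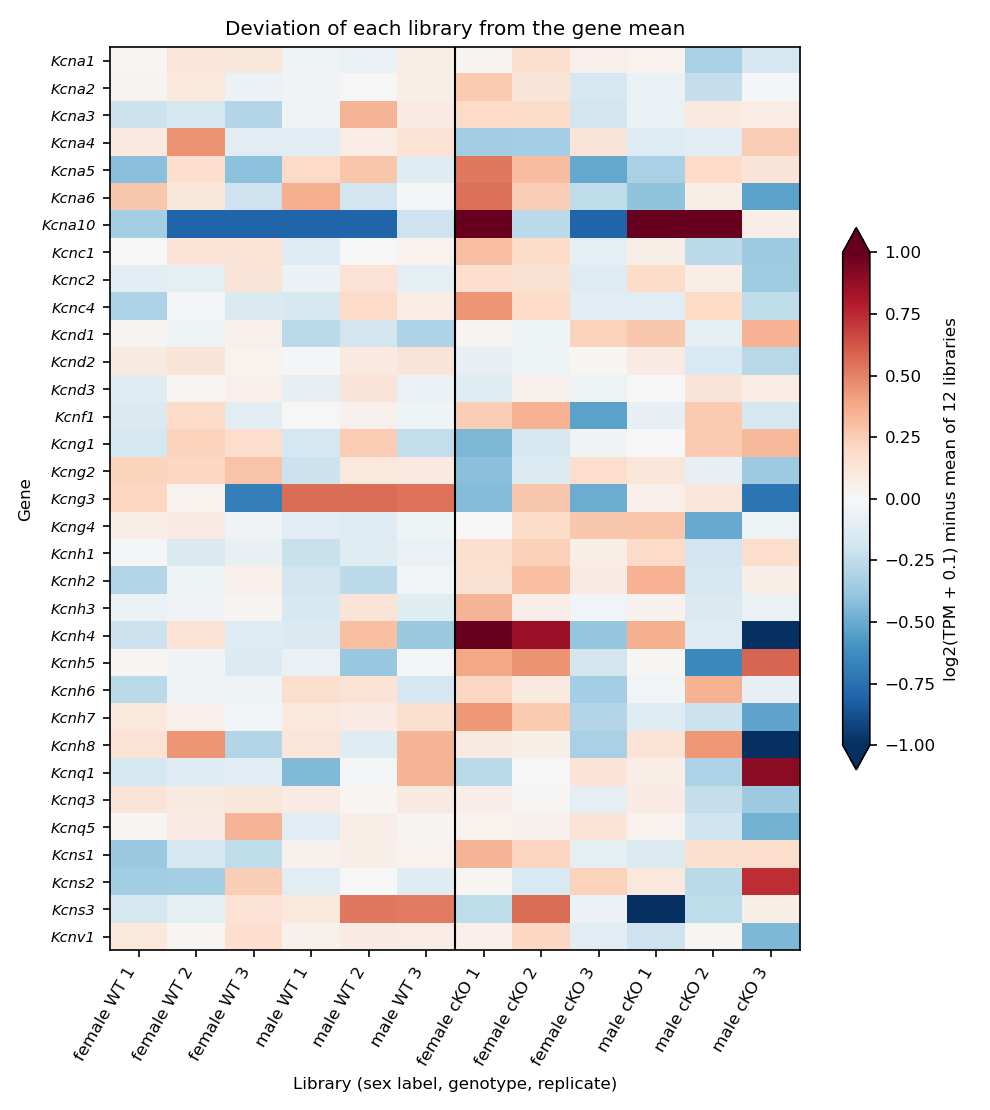
Log2(TPM + 0.1) of each library minus the mean of the 12 libraries, for 33 of the tested genes (rows) in 6 WT libraries (left of the line) and 6 *Dek* cKO libraries (right), with red above and blue below the mean and colors ending at -1 and 1. The columns of female cKO replicate 1 and male cKO replicate 3 hold the strongest colors across genes, and they hold the highest value for 9 and 5 of these genes and the lowest for 4 and 11.

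Sums of cell type markers also varied between libraries, with extremes in these 2 libraries and in others. The 5 astrocyte markers summed to 686 to 771 TPM in WT and 652 to 1700 TPM in cKO. Male cKO replicate 3 was highest and female cKO replicate 3 next at 960 TPM. The 7 meninges markers summed to 105 to 182 TPM in WT and 53.7 to 272 TPM in cKO. Female cKO replicate 1 was lowest and male cKO replicate 3 next at 72.3 TPM, while male cKO replicate 2 was highest. Female cKO replicate 1 was also lowest for choroid plexus (47.9 TPM), close to male cKO replicate 2 (65.0 TPM) and female WT replicate 3 (72.6 TPM). The 6 CA1 pyramidal cell markers summed to 294 to 348 TPM in WT and 254 to 324 TPM in cKO, with a median log2 fold change of -0.21, and *Man1a* among them was at -0.24 (unadjusted p = 0.0098, limma). The 8 interneuron markers summed to 800 to 861 TPM in WT and 836 to 889 TPM in cKO, and the 7 dentate granule cell markers to 147 to 215 and 151 to 236 TPM. With limma 0 markers passed the test. At an unadjusted p under 0.05 stood 1 of 6 CA1, 1 of 4 CA2 and 1 of 5 microglia markers. Of the other lists, none of 7 dentate granule cell, 6 CA3, 8 interneuron, 8 thalamus and habenula, 7 choroid plexus and 7 meninges markers stood there. Nor did any of 6 oligodendrocyte, 5 astrocyte, 4 endothelium, 5 blood and 5 tested photoreceptor markers. Over all genes the share was 6.64%, and the lists with a hit alone do not give the share over all markers. These 3 were *Man1a*, *Amigo2* of CA2 (-0.35) and *C1qa* of microglia (0.19). The median log2 fold change was 0.06 over the CA2 markers, against the sign of *Amigo2*, and 0.07 over the microglia markers. The part of cell composition in the values of *Kcnd2*, *Kcnq3* and the other members was not tested.

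Of 18 tested genes that work with these channels, 0 passed the test with limma, and 3 (16.7%) stood at an unadjusted p under 0.05, against 6.64% of all genes. Of 3 beta subunits of *Kcna* channels, *Kcnab1* was at -0.13 (unadjusted p = 0.0302, limma). Of 5 proteins that cluster or bind *Kcna* channels on axons and at synapses, *Cntnap2* was at -0.17 (unadjusted p = 0.0289) and *Adam23* at -0.14 (unadjusted p = 0.0345). None of the 4 calcium-binding KChIP subunits or the 2 DPP-like subunits of *Kcnd* channels, and none of 4 tested KCNE subunits, had an unadjusted p under 0.05.

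Among 37 other channels tested 0 passed with limma and 2 (5.41%) stood at an unadjusted p under 0.05. None of 13 tested inward rectifiers and none of the 4 *Hcn* pacemaker channels had an unadjusted p under 0.05. Of 10 tested 2-pore domain channels, *Kcnk6* was at 0.26 (unadjusted p = 0.027). The list of calcium- or sodium-activated channels and their relatives held 10 tested genes. Of these, *Kcnu1*, a relative known from sperm and not itself calcium-activated, had an unadjusted p under 0.05. *Kcnu1* ranged from 4.89 to 6.38 TPM in WT with a median of 5.76, and from 6.42 to 9.33 TPM in *Dek* cKO with a median of 7.53. Its genotypes did not overlap, as was the case for 0.676% of all genes, and its log2 fold change was 0.41 (SE 0.10, unadjusted p = 0.00116, adj p value 0.239 with limma).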

How the data were processed

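Gene levels were measured by bulk mRNA sequencing of hippocampus from 12 mice. The authors deposited 1 table of TPM, with a column per library, and every column was matched to a sample by its name. The submitters' processing notes name kallisto and mm10, whereas the methods describe STAR alignment to GRCm38 and Salmon, and which of them wrote the table is not given in the sources used here. TPM is scaled within each library (column sums 825750 to 845553), so counts and depth per library could not be recovered from the table and no count test was made. A library rich in a few transcripts lowers the TPM of all others.

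Of 26409 rows, 25262 matched GENCODE M21. After a filter at a mean of 0.1 TPM, which 18197 genes passed, log2(TPM + 0.1) was tested with limma 3.58.1 (R 4.3.3; trended prior variance, two-sided) and Benjamini-Hochberg adjustment over all of them. The comparison of 6 with 6 libraries used 2 groups, and those within a sex and the interaction used 1 fit of 4 groups. Calls needed both an adjusted p below 0.05 and a change of over 1.2-fold. The script was tested on simulated data of 6 against 6 libraries, with 200 changed genes. It called 65% of genes changed by a log2 of 1 and 43.5% of those changed by 0.5. A gene without a call can thus still differ. Python 3.11.15 with matplotlib 3.10.9, numpy 2.4.6 and pandas 2.3.3 served for tables and plots.

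The members and lists were chosen with earlier results of these data known. Values were given for the highest member of each subfamily, for members at an unadjusted p under 0.05, and for *Kcna10* and *Kcng3*, except for 4 genes that are not reported here. Alternatives changed the pseudocount, filter, scaling, prior, covariates and libraries.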

Additional observations from a re-analysis of the deposited data

Results flagged for a closer look

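Of 78 groups of 6 libraries (39 genes in 2 genotypes), 3 held a library whose gap to the next was over 0.625 of the range of its group, where chance gives about 1 in 20, or 3.9. *Kcna7* was at 0.114 TPM in female WT replicate 3 (gap 0.859 of the range). *Kcna10* was at 0.91 TPM in male cKO replicate 2 (0.691 of the range), the library without which this gene could not be tested. *Kcnq1* was at 0.785 TPM in male cKO replicate 3 (0.723 of the range). All 3 are genes under 1 TPM, and no interaction of a member with sex passed the test.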

How the results depend on the processing

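With limma, 0 members were called in each comparison under each of the alternatives that apply to it, 24 in all. All 534 recomputed log2 fold changes of the named genes kept their sign and none passed the threshold. The number of members at an unadjusted p under 0.05 was 6 as reported and between 5 and 8 with 1 library left out. *Kcnd2*, *Kcnh1* and *Kcnh2* stayed under 0.05 in all 12 of these fits, while *Kcnd1* did not in 6, *Kcnq3* not in 4 and *Kcna10* not in 2 of 11. *Kcna10* gave no value without male cKO replicate 2 or with a mean of at least 1 TPM, since it then missed the filter. The median log2 fold change of members was 0.022 as reported and ranged from -0.026 to 0.032 with 1 library left out.

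The number of genes called over the whole table was 27 as reported, 17 with no filter on low values, 16 without both libraries of conflicting sex and 8 with CMV-named libraries only. With 1 library left out it ranged from 13 to 27, with 13 without female cKO replicate 2, 15 without female cKO replicate 1 and 17 without male cKO replicate 1. The cause was not tested. Replicate numbers did not pair the samples, since the correlations of same-numbered libraries lay between -0.0385 and 0.0445. Only 2 of 6 WT libraries matched the cKO library of their own number best. With the replicate number as a block, 3 genes were called, 4 members stood at an unadjusted p under 0.05 and the median was 0.022.

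The count of members with the larger SD in cKO was examined with alternatives chosen after seeing the data, and it lay between 29 and 35. TPM without depth limits what can be said of *Kcna7*, *Kcna10*, *Kcnv2* and other genes under 1 TPM.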

Other observations

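Of the KCNE subunits, small membrane proteins that join *Kcnq* channels, *Kcne2* varied widely between libraries, and it was chosen after the values were seen. *Kcne2*, which is known from choroid plexus epithelium, ranged from 0.619 to 12.4 TPM in WT and from 0.374 to 22.2 TPM in *Dek* cKO, a wider span than that of any of the 39 channel genes with a WT mean of at least 1 TPM. Its lowest library, female cKO replicate 1 at 0.374 TPM, also had the lowest sum of 7 choroid plexus markers, at 47.9 TPM. Its highest, male cKO replicate 1 at 22.2 TPM, had the highest sum, at 4454 TPM. The other KCNE genes together summed to 4.87 to 5.87 TPM in 10 libraries and to 9.60 and 9.89 TPM in female cKO replicate 3 and male cKO replicate 3, whose choroid plexus sums were 1124 and 1376 TPM. The part of choroid plexus in the *Kcne2* values was not tested. The log2 fold change between genotypes was 0.25 with an SE of 1.03 (limma adj p value 0.991).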
